A study of Rattus norvegicus with 74 samples.

Results

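The structural RNA genes of the ribosome and of mitochondrial translation were followed through rat skeletal muscle, isolated muscle mitochondria and heart. Members were all genes whose biotype in the count tables was Mt_rRNA, Mt_tRNA or rRNA, which gave 234 of 30560 genes. They comprised 2 mitochondrial ribosomal RNA (rRNA) genes, 22 mitochondrial transfer RNA (tRNA) genes and 210 nuclear-encoded rRNA genes. The nuclear class held 170 copies named 5S_rRNA, 33 copies named 5_8S_rRNA, the gene Rn5s and 6 genes with no symbol, which are called here by their Ensembl identifiers.

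The study sampled male wild-type Wistar Kyoto rats, an inbred normotensive strain, at 9 weeks of age. Exercise-trained rats (ExT) ran on a treadmill for 4 weeks from 5 weeks of age, with 5 sessions a week that rose to 60 min at 20 m/min, and were sampled 24 h after the final run. Sedentary rats (Sed) were placed on a treadmill that did not move, and rats of both arms drank water containing deuterium oxide. SM denotes whole red gastrocnemius muscle, MT denotes mitochondria captured from that muscle with antibody-coated beads and digested with RNase A and proteinase K, and LV denotes the wall of the left ventricle. SM_Sed, SM_ExT, MT_Sed and MT_ExT held 15 libraries each from the same 30 rats, and LV_Sed and LV_ExT held 7 libraries each from 14 of those rats. SM libraries were made from 50 ng and MT libraries from 10 ng of RNA with the Zymo-Seq RiboFree kit, and LV libraries from 100 ng with the TruSeq Ribo-Zero kit. Both kits deplete rRNA before sequencing. Kit and RNA input therefore cannot be told apart from tissue in LV against SM, and isolation, nuclease treatment and input cannot be told apart from compartment in MT against SM.

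The mitochondrial genome is a small circle that is transcribed on both strands into long precursors. Its tRNA genes lie between the rRNA and protein genes, and excision of the tRNAs by ribonucleases at their 5′ and 3′ ends releases the flanking rRNAs and mRNAs. The small and large mitochondrial rRNAs form the mitochondrial ribosome, which translates the few membrane subunits of the respiratory chain that mitochondria encode. Cytosolic ribosomes instead use nuclear-encoded rRNA: 18S, 5.8S and 28S are cut from a common precursor made by RNA polymerase I, and 5S is made by RNA polymerase III from a separate repeated gene family. Muscle and heart are rich in mitochondria, and mitochondrial rRNA is among the most abundant RNAs of both.

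Total counts were between 19477976 and 39401323 per SM library, between 530397 and 9988027 per MT library and between 54645657 and 75758777 per LV library. Genes of the mitochondrial genome took 22.1 to 35.9% of all counts in SM, 12.9 to 95.4% in MT and 39.9 to 50.7% in LV. The wide range in MT came with nuclear-encoded counts that stayed within a 2.45-fold range (430162 to 1055433). Skeletal muscle fibre markers summed to a median of 141920 per 1000000 nuclear-encoded counts in SM_Sed, 681 in MT_Sed and 2890 in LV_Sed, and cardiac markers to 16.6, 670 and 46341. Blood, immune, vessel and fat markers had group medians between 91.8 and 973 on that scale. A library of bulk tissue does not separate fewer cells of a type from less RNA per cell.

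Mitochondrial rRNA was the largest of the member classes in each kind of library. In SM_Sed it took 17.3% of all counts in the lowest library, 22.8% in the median and 28.4% in the highest, and in SM_ExT 20.3%, 25.05% and 28.9%. MT_Sed spanned 9.44 to 74.8% with a median of 40.1%, and MT_ExT 11.9 to 76.5% with a median of 34.0%. LV_Sed spanned 37.5 to 45.1% with a median of 39.3%, and LV_ExT 35.0 to 41.2% with a median of 37.2%. All LV libraries lay above all SM libraries, whereas MT libraries lay below, within and far above the SM range.

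**Figure D1:**
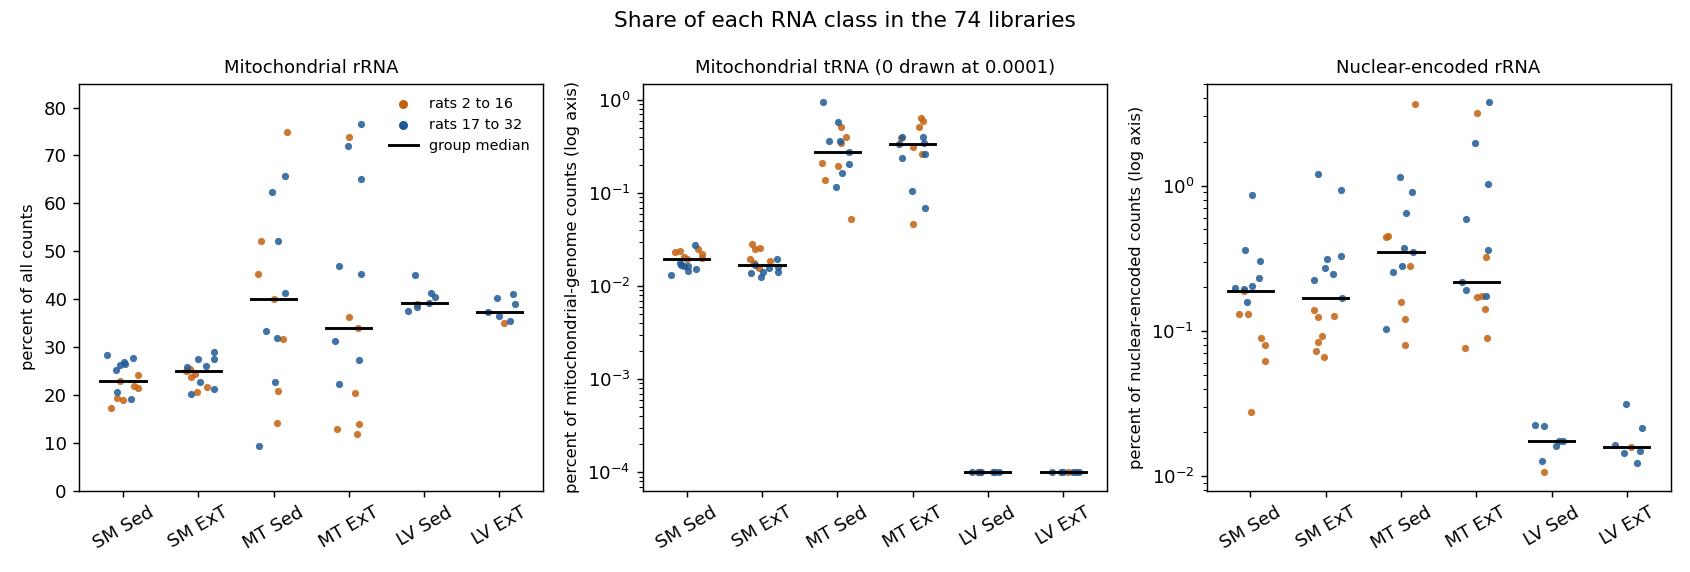
Share of each RNA class in each of the 74 libraries (points, coloured by rat number range) by group, with group medians as bars; the y axis is percent of all counts (left), percent of mitochondrial-genome counts (middle, log axis) and percent of nuclear-encoded counts (right, log axis). Mitochondrial rRNA is high and tight in LV and scattered from 9.44 to 76.5% in MT, mitochondrial tRNA is higher in every MT library than in any SM library and 0 in all 14 LV libraries, and nuclear-encoded rRNA is lowest in LV.

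In MT the class averaged 39.9% ± 19.2 (SD, n = 15) of all counts in Sed against 23.1% ± 3.60 (n = 15) in SM, higher in 12 of 15 rats (difference 16.8 percentage points; two-sided permutation test, p = 0.00185, adjusted p = 0.00454 over 27 class tests). In ExT it averaged 39.3% ± 22.95 against 24.4% ± 2.68, higher in 9 of 15 rats (difference 14.9, adjusted p = 0.0379). The ExT difference missed the threshold when rats were used as blocks (adjusted p = 0.0683) and fell to 6.20 without the MT libraries of rats 2, 15, 27 and 28, the 4 with the most mitochondrial-genome counts (adjusted p = 0.244). Within rats numbered 2 to 16 the difference was 19.004 in Sed (adjusted p = 0.0460) and 5.29 in ExT (adjusted p = 0.824), all by exact permutation tests, and within rats 17 to 32 the values were 14.8 (adjusted p = 0.111) and 23.3 (adjusted p = 0.0119). As a share of mitochondrial-genome counts alone, mitochondrial rRNA differed little between MT and SM: SM libraries spanned 64.5 to 82.4% and MT libraries 67.8 to 84.4%, with differences of 0.857 percentage points in Sed (permutation p = 0.537) and 2.24 in ExT (permutation p = 0.223).

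LV exceeded SM of the same rats by 15.1 percentage points in Sed and by 13.5 in ExT, in 7 of 7 rats of each arm and without overlap. The exact two-sided permutation p was 0.000583, the smallest that 7 against 7 libraries allow (adjusted p = 0.00157). Within the mitochondrial genome the class was also a larger share in LV, at 84.99 to 88.9%, than in any SM library.

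The 2 mitochondrial rRNA genes carry the names AY172581.9 (ENSRNOG00000030478) and AY172581.24 (ENSRNOG00000043866) in the tables, which do not say which of them is the small and which the large rRNA. Their counts were near parity in skeletal muscle. The ratio of AY172581.24 to AY172581.9 counts in SM was 0.854 in the lowest library, 0.994 in the median and 1.09 in the highest, and in MT it was 0.854, 1.11 and 1.30. In LV the ratio was 4.36, 5.50 and 6.74. Every LV library lay far above every SM and MT library. This ratio is taken within a library and does not depend on how libraries are scaled, but it is a ratio of counts that are not corrected for gene length.

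On the log2 scale the LV ratio averaged 2.50 ± 0.12 (SD, n = 7) in Sed and 2.43 ± 0.16 (n = 7) in ExT, against -0.05 ± 0.09 and -0.02 ± 0.12 in SM of the same rats. The differences of 2.55 and 2.44 appeared in 7 of 7 rats in each arm (exact permutation p = 0.000583, adjusted p = 0.00157). The 2 genes moved in opposite directions: AY172581.24 took 29.6 to 39.3% of all counts in LV and 8.74 to 14.8% in SM, while AY172581.9 took 5.05 to 6.80% in LV and 8.55 to 15.0% in SM. Neither gene's LV libraries overlapped its SM libraries. The share of all genes without such overlap was not counted, and 78.7% of all genes tested by edgeR were called in Sed and 79.3% in ExT. In edgeR's quasi-likelihood test over all genes with Benjamini-Hochberg adjustment, AY172581.24 was higher in LV by 1.24 ± 0.14 (SE, log2 scale) in Sed (adjusted p = 1.1e-07) and 1.20 ± 0.17 in ExT (adjusted p = 2.1e-06). AY172581.9 fell by 1.31 ± 0.12 (adjusted p = 4.8e-09) and by 1.24 ± 0.16 (adjusted p = 6.8e-07). Whether the kits deplete the 2 rRNAs to different extents was not tested.

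**Figure D2:**
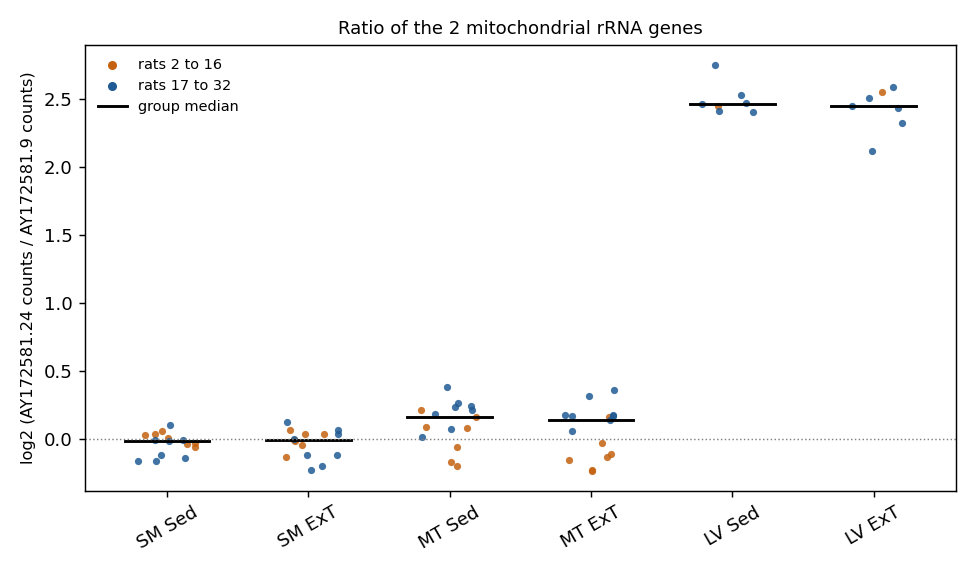
Log2 ratio of AY172581.24 counts to AY172581.9 counts in each library (points, coloured by rat number range) by group, with group medians as bars and a dotted line at equal counts. SM and MT libraries sit between -0.23 and 0.38 and LV libraries between 2.12 and 2.75; within MT, the points of rats 17 to 32 all lie above 0.

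In MT_Sed the log2 ratio averaged 0.12 ± 0.16 against -0.03 ± 0.08 in SM_Sed, higher in 12 of 15 rats (difference 0.15; permutation test, adjusted p = 0.00902). In ExT the values were 0.06 ± 0.19 and -0.03 ± 0.10, higher in 9 of 15 rats (difference 0.09, adjusted p = 0.188). The difference was found in 1 range of rat numbers: the later rats, 17 to 32, gave 0.26 in Sed and 0.25 in ExT (exact permutation tests, adjusted p = 0.00229 and 0.00143), and rats 2 to 16 gave 0.02 and -0.09 (exact permutation tests, adjusted p = 0.905 and 0.213). Within rats, MT minus SM averaged 0.26 ± 0.09 over the 16 later rats and -0.04 ± 0.17 over the 14 earlier rats, and these differed by 0.30 (permutation test, adjusted p = 0.00012 over 12 tests of rat range). The ranges were chosen after the data were seen, and the labels do not say what separates them.

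The gene-level direction of both rRNAs in MT against SM depended on the scaling. With TMM normalization the log2 fold changes were 0.28 ± 0.46 (SE) and 0.06 ± 0.45 in Sed for AY172581.24 and AY172581.9, and 0.86 ± 0.59 and 0.78 ± 0.59 in ExT, none of them called by edgeR (adjusted p = 0.160 to 0.892). Under TMM the median of all genes stood at 1.81 in Sed and 1.31 in ExT, so both genes lay below that median. With rats as blocks AY172581.9 changed sign and was called in Sed, falling by 0.91 (edgeR adjusted p = 0.0343). Without the MT libraries of rats 2, 15, 27 and 28 both were called lower in ExT, falling by 1.10 and by 1.25 (adjusted p = 0.0082 and 0.0020). With library totals alone both were called higher in each arm, at 0.89 and 0.70 in Sed and 0.78 and 0.64 in ExT, and with counts thinned to the smallest library both were again called higher, with class medians of 1.78 in Sed and 2.64 in ExT. AY172581.24 was also called higher in ExT with RLE size factors (1.25, adjusted p = 0.0465) and by DESeq2 (1.25, adjusted p = 0.0487). With the mitochondrial-genome total as library size the values for AY172581.24 and AY172581.9 were 0.09 and -0.06 in Sed. These genes make up most of that total, so this scaling itself holds them near 0. The share of mitochondrial-genome counts given above has the same total as its denominator. Its small differences are therefore limited in the same way and do not show that the level of these rRNAs was unchanged.

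Mitochondrial tRNAs carry amino acids to the mitochondrial ribosome and, in the precursor, mark where it is cut. The tables give the 22 genes as AY172581.1 to AY172581.8 and AY172581.10 to AY172581.23 without their amino acids. In SM, 21 of the 22 had a count in at least 1 of the 30 libraries, in MT all 22, and in LV none. A count in every library was found for 9 genes in SM and 9 in MT. Depth was thin: the class summed to 1158 to 2593 counts per SM library (median 1543) and 433 to 7995 per MT library (median 2104).

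As a share of mitochondrial-genome counts, tRNA took 0.0132% in the lowest SM_Sed library, 0.0197% in the median and 0.0278% in the highest, and 0.0125%, 0.0168% and 0.0283% in SM_ExT. MT_Sed gave 0.0530%, 0.275% and 0.950%, and MT_ExT 0.0470%, 0.337% and 0.642%. The lowest MT library was above the highest SM library. Means were 0.326% ± 0.228 (SD, n = 15) in MT_Sed against 0.0195% ± 0.00423 in SM_Sed, a 16.7-fold difference, and 0.329% ± 0.177 against 0.0182% ± 0.00466 in ExT, an 18.04-fold difference. Both were higher in 15 of 15 rats (two-sided permutation test, p = 1e-05, the smallest that 100000 resamples can give; adjusted p = 0.000135). Within the rat number ranges the class was higher by 0.245 and 0.360 percentage points in Sed and by 0.375 and 0.255 in ExT (exact permutation tests, adjusted p = 0.00157 in each). MT libraries also carried a possible background that was far smaller in SM. Genes whose symbols begin with Olr or Vom, used here as olfactory and vomeronasal receptor genes, took 1.37 to 1.98% of nuclear-encoded counts in MT and 0.000766 to 0.00158% in SM. Within MT the tRNA share was highest where mitochondrial-genome counts were a small share (r = -0.919, below). The part of such a background in the tRNA counts was not tested.

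The tRNA genes were very unequal. In SM, AY172581.2 (ENSRNOG00000029145) averaged 42.1% ± 5.98 (SD, n = 30) of tRNA counts, AY172581.21 (ENSRNOG00000033545) 20.4% ± 3.28, AY172581.22 (ENSRNOG00000033932) 15.6% ± 2.09 and AY172581.6 (ENSRNOG00000029677) 9.94% ± 3.75. In MT the order changed, and AY172581.21 led with 23.2% ± 3.19, followed by AY172581.2 at 18.3% ± 3.78, AY172581.19 (ENSRNOG00000032882) at 18.3% ± 3.53 and AY172581.22 at 13.3% ± 1.67. The spreads of AY172581.2 and AY172581.19 in MT overlap, so their order is not separated. AY172581.2 ranged from 33.0 to 52.1% of the class in SM and from 8.55 to 27.6% in MT, with no overlap between the kinds of library. AY172581.19 ranged from 4.54 to 10.8% in SM and from 10.7 to 24.3% in MT, with ranges that overlap only at their edge. At the other end AY172581.17 (ENSRNOG00000032578) had no count in SM and at most 1 count in an MT library, and AY172581.10 (ENSRNOG00000031333) never exceeded 1 count in a library. The lowest genes are at the limit of detection, which is 3 counts per library.

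Per 1000000 mitochondrial-genome counts, AY172581.2 had 60.0 in the lowest SM library, 70.6 in the median and 139 in the highest, and in MT 116, 533 and 1340. AY172581.21 had 21.0, 37.5 and 73.0 in SM, and 102, 703 and 2619 in MT. AY172581.19 had 6.68, 12.2 and 29.4 in SM, and 68.1, 568.4 and 1845 in MT. For AY172581.2 the ranges overlap slightly, and for AY172581.21 and AY172581.19 every MT library was above every SM library. Genes that were scarce in SM were included among those with separate ranges. AY172581.20 (ENSRNOG00000032997) had 0.229, 0.867 and 1.81 in SM (8 counts in the median library) against 8.32, 270 and 922 in MT, and AY172581.7 (ENSRNOG00000029954) had 0.260, 0.750 and 2.20 against 8.06, 159 and 574. Both were separated from SM in all 30 MT libraries. The share of all genes with separate ranges was not counted. Of all genes tested by edgeR in MT against SM, 94.8% were called in Sed and 94.3% in ExT. Separate ranges are therefore not read as particular to these tRNA genes. Among the genes with regular counts AY172581.15 (ENSRNOG00000032274) overlapped widely: it had 0.779, 2.38 and 4.66 in SM and 0, 4.66 and 29.9 in MT. AY172581.8 also overlapped, reaching 22.6 in SM (SM_ExT rat 2) and as little as 8.84 in MT (MT_Sed rat 15).

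**Figure D3:**
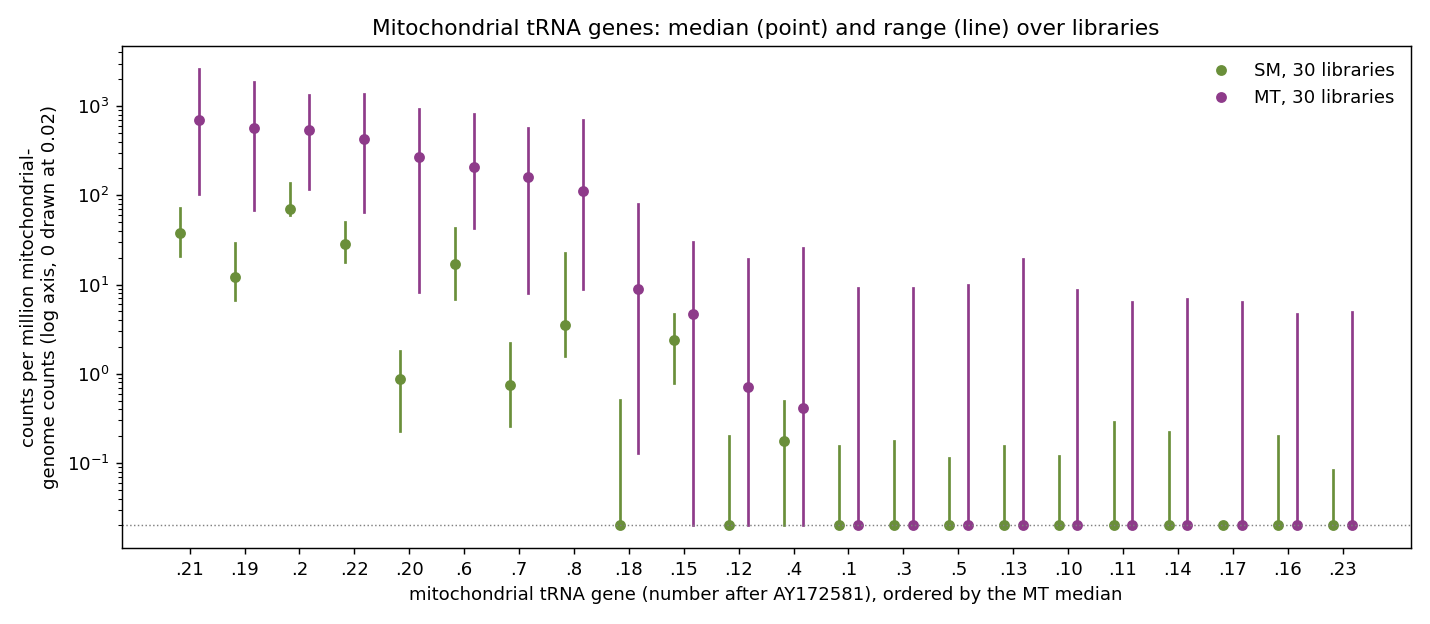
The 22 mitochondrial tRNA genes (x axis, number after AY172581, ordered by the MT median), with counts per 1000000 mitochondrial-genome counts on a log axis; points are medians and lines the range over 30 SM and 30 MT libraries, and 0 is drawn at 0.02. AY172581.21 and AY172581.19 have MT ranges wholly above their SM ranges, AY172581.20 and AY172581.7 show wide gaps between medians, and the genes on the right are mostly at 0 in both.

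In edgeR's quasi-likelihood test 9 tRNA genes passed the filter on low counts in MT against SM in each arm. In Sed 5 of them passed it in both kinds of library, and all 5 were called higher (Benjamini-Hochberg adjusted p below 0.05). In ExT 6 did, and all 6 were called higher. AY172581.20 and AY172581.7 passed through MT alone, with 0 of 15 SM libraries past the limit in each arm, so they had to differ and no p is given for them. AY172581.8 and AY172581.15 also passed through MT alone in Sed. Over all genes 94.8% were called in Sed and 94.3% in ExT, and 61.7% and 59.3% were called higher (33.1% and 35.0% lower), so a call by itself is close to the background and the size of the change carries the comparison. Against a median of 1.81 over all genes in Sed, AY172581.19 was higher by 4.53 ± 0.28 on the log2 scale (± SE; adjusted p = 1.5e-15), and AY172581.21 with 3.35 ± 0.28, AY172581.22 with 2.94 ± 0.23, AY172581.6 with 2.81 ± 0.31 and AY172581.2 with 2.03 ± 0.27 were called as well. AY172581.2 lay only 0.22 above that median, less than its SE, so its change was not set apart from that of a typical gene. The fitted values of the genes carried by MT were 6.90 for AY172581.20, 6.38 for AY172581.7 and 3.54 for AY172581.8 (ENSRNOG00000030339), given as a description. AY172581.15 had 0.41 ± 0.31 (adjusted p = 0.203) in Sed and 0.86 ± 0.39 (adjusted p = 0.0385) in ExT, below the all-gene median in both, and the ExT call was lost with rats as blocks (0.54, adjusted p = 0.161). In ExT the value for AY172581.19 was 4.93 ± 0.39, and those for AY172581.20 and AY172581.7 were 7.44 and 6.79. With the mitochondrial-genome total as library size the same fits gave 8.11 for AY172581.20, 7.61 for AY172581.7, 5.42 for AY172581.19, 4.23 for AY172581.21, 2.72 for AY172581.2 and 1.23 for AY172581.15 in Sed. The median of all genes stood at 3.27 in these Sed fits, above the values of AY172581.2 and AY172581.15. Scaling by the mitochondrial-genome total is the one that sets tRNA against the rest of the mitochondrial genome. The 2 rRNA genes lay at 0.09 and -0.06 under it. They make up 64.5 to 84.4% of that total over SM and MT libraries, so the scaling itself holds them near 0.

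Over the 60 SM and MT libraries, the tRNA genes whose log2 share of mitochondrial-genome counts followed the class sum most closely were AY172581.22 (Pearson r = 0.995), AY172581.21 (r = 0.995) and AY172581.2 (r = 0.989). Each of these genes is itself part of the sum, and each gene's share has the same denominator as the class share. SM and MT were pooled and differ strongly in the class share, which by itself raises r for any gene higher in MT. The order of these values is therefore not read as a result.

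In LV none of the 22 tRNA genes had a count in any of the 14 libraries, which hold 935339544 counts in all. By the limit of 3 counts, the whole class could reach at most 0.0032 counts per 1000000 counts of the library (CPM) over the summed libraries, and 0.0396 to 0.0549 CPM in a single library. SM of the same rats averaged 55.9 ± 9.96 CPM (SD, n = 7) in Sed and 50.3 ± 14.1 in ExT. The class was therefore at least 1146-fold lower in LV in Sed and at least 916-fold lower in ExT, set against the floor of the shallowest LV library of each arm. For single genes the bound followed their level in SM, from at least 474-fold for AY172581.2 and 240-fold for AY172581.21 to at least 6.39-fold for AY172581.7 in Sed. No test is given, since LV was at 0 in every library and SM in none. Floors cover counting error only. How reads spanning a tRNA and its neighbour were counted, and how short fragments were kept, is not given in the sources used here for either kit.

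Nuclear-encoded rRNA was a small class after depletion. Its share of nuclear-encoded counts was 0.0276% in the lowest SM_Sed library, 0.189% in the median and 0.865% in the highest, and 0.0665%, 0.169% and 1.20% in SM_ExT. MT_Sed gave 0.0798%, 0.349% and 3.68%, and MT_ExT 0.0758%, 0.217% and 3.76%. LV_Sed gave 0.0106%, 0.0173% and 0.0225%, and LV_ExT 0.0123%, 0.0157% and 0.0314%. SM and MT overlapped over most of their ranges and LV lay below nearly all of them.

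The MT mean exceeded SM in Sed (0.618% ± 0.899 against 0.215% ± 0.201, higher in 10 of 15 rats) and in ExT (0.827% ± 1.18 against 0.292% ± 0.329, 11 of 15 rats), but neither difference passed the permutation test (adjusted p = 0.0650 and 0.186). A few libraries set these means. Without the MT libraries of rats 2, 15, 27 and 28 the differences of 0.403 and 0.534 percentage points became 0.184 (adjusted p = 0.129) and 0.00175 (adjusted p = 0.989). Without the SM libraries of rats 26, 28 and 29, the 3 with the most rRNA, they became 0.450 (adjusted p = 0.0118) and 0.653 (adjusted p = 0.0783). LV was lower than SM of the same rats by 0.294 percentage points in Sed and by 0.438 in ExT, in 7 of 7 rats and without overlap (exact permutation p = 0.000583, adjusted p = 0.00157). Without those 3 SM libraries the differences were -0.202 and -0.194 (exact permutation tests, adjusted p = 0.00157 and 0.00341).

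Different genes made up the class in muscle and in heart. In SM the gene ENSRNOG00000068307 held a median of 95.0% of the class (93.8 to 96.6%) and in MT 82.8% (53.3 to 93.6%), but in LV only 0.834% (0.237 to 7.73%). In LV the gene ENSRNOG00000065988 held 98.2% (91.6 to 98.7%), against 1.20% in SM and 0.654% in MT. The tables give neither gene a symbol, and they are biotype rRNA with no named subunit. ENSRNOG00000068307 had 195 CPM in the lowest SM library, 1133 in the median and 8515 in the highest, 339, 1341 and 3226 in MT, and 0.211, 0.622 and 9.52 in LV. ENSRNOG00000065988 had 5.07, 14.3 and 36.3 in SM, 1.80, 9.84 and 18.99 in MT, and 57.4, 91.1 and 177 in LV. For each gene no LV library overlapped an SM library, in opposite directions. The share of all genes without overlap between LV and SM was not counted, so the lack of overlap is not read as particular to these genes.

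**Figure D4:**
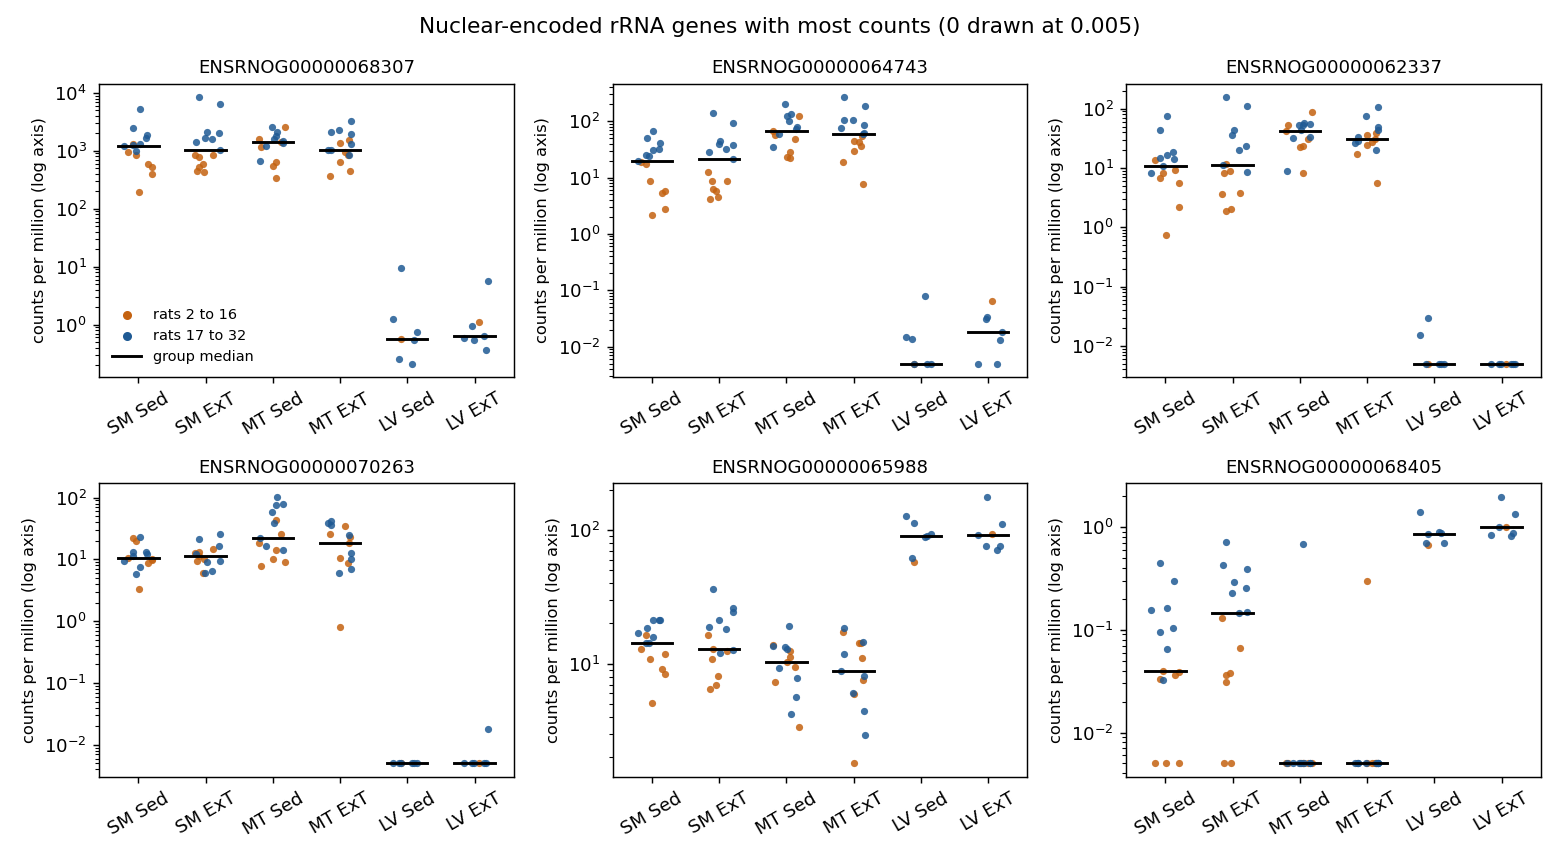
CPM (log axis, 0 drawn at 0.005) of the 6 nuclear-encoded rRNA genes with the most counts, in each library (points, coloured by rat number range) by group, with group medians as bars. ENSRNOG00000068307, ENSRNOG00000064743, ENSRNOG00000062337 and ENSRNOG00000070263 are high in SM and MT and near 0 in LV, and ENSRNOG00000065988 and ENSRNOG00000068405 are highest in LV.

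In LV against SM 15 members passed the filter in each arm, but only 3 in Sed and 4 in ExT passed it in both tissues. AY172581.24 and ENSRNOG00000065988 were called higher and AY172581.9 lower in both arms, and ENSRNOG00000068307 lower in ExT, against 78.7% of all genes called in Sed and 79.3% in ExT (40.0% and 39.7% higher, 38.6% and 39.5% lower). The other 12 and 11, among them the 7 tested tRNA genes, passed through 1 tissue alone. The filter favoured a difference for these, so their calls are not counted. The tRNA genes had 0 of 7 LV libraries past the limit. By contrast, ENSRNOG00000068307 in Sed had 6 of 7 LV libraries past it, and ENSRNOG00000068405 in ExT 5 of 7 SM libraries. ENSRNOG00000065988 rose on the log2 scale by 2.21 ± 0.20 (± SE; edgeR adjusted p = 5.9e-08) in Sed and 2.12 ± 0.27 (adjusted p = 6.3e-06) in ExT. ENSRNOG00000068307 fell by 11.3 ± 1.1 in ExT (adjusted p = 4.2e-07). ENSRNOG00000068405, which passed through LV alone, had 0 to 0.710 CPM in SM with a median of 0.0812, near the limit of 3 counts, and 0.674 to 1.97 CPM in LV with a median of 0.879. ENSRNOG00000064743 and ENSRNOG00000062337 had medians of 20.6 and 11.1 CPM in SM, and at most 0.0792 and 0.0295 in any LV library. ENSRNOG00000070263, a copy named 5_8S_rRNA, had 3.33 to 25.4 CPM in SM and 1 count in 1 of 14 LV libraries. With the mitochondrial-genome total as library size the split over all genes moved from 5750 higher and 5551 lower to 3899 and 6719 in Sed, and with library totals alone to 7226 and 4296.

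In MT against SM the nuclear members that passed the filter numbered 12 in Sed and 8 in ExT, of which 5 in each arm passed it in both kinds of library. ENSRNOG00000065988 was lower in MT, falling by 1.92 ± 0.22 in Sed (edgeR adjusted p = 1.3e-09) and by 2.06 ± 0.27 in ExT (adjusted p = 2.8e-08). The Sed call was lost with library totals alone (-0.53, adjusted p = 0.0521) and both calls with the mitochondrial-genome total as library size (-0.85 and -0.83, adjusted p = 0.0712 and 0.120). With library totals alone the ExT value was -0.75 (adjusted p = 0.0312). Over all classes 12 members passed in both kinds of library in Sed, 5 called higher and 1 lower, and 13 in ExT, 6 higher and 2 lower. With library totals alone the split over all genes in Sed moved from 14086 higher and 7562 lower to 17616 and 2811. ENSRNOG00000068307 was not called, at -0.65 ± 0.52 (adjusted p = 0.231) and -0.60 ± 0.64 (adjusted p = 0.361). With rats as blocks it was called lower in both arms, falling by 1.19 and by 1.62 (adjusted p = 0.0402 and 0.00559), and within rats 2 to 16 it turned positive (0.64 in Sed and 0.49 in ExT). ENSRNOG00000070263 had 0.26 (adjusted p = 0.460) in Sed and fell by 0.79 ± 0.26 (adjusted p = 0.00525) in ExT, a call whose direction reversed with library totals alone (0.70). Set against mitochondrial rRNA in the same library, ENSRNOG00000068307 had 1.02 to 42.0 counts per 1000 mitochondrial rRNA counts in SM (median 4.64) and 1.38 to 7.13 in MT (median 3.41).

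More of the repeated 5S and 5.8S copies had a count in MT than in SM or LV, as did genes in general. Of the 170 genes named 5S_rRNA, 56 had a count in some MT library, 11 in some SM library and 0 in LV, and of the 33 genes named 5_8S_rRNA 32, 13 and 1 did. Over all genes 98.3% had a count in some MT library, 78.9% in some SM library and 68.3% in some LV library. Rn5s had counts in MT alone. A library held 26 to 74 counts over all 5S copies in MT and 1 to 20 in SM, which is 0.0047 to 0.0103% of nuclear-encoded counts in MT and 5e-06 to 9e-05% in SM. The 5.8S copies other than ENSRNOG00000070263 summed to 36 to 187 counts in MT (0.0073 to 0.0255%) and 1 to 30 in SM (5e-06 to 0.000115%). Neither sum overlapped between MT and SM on the percentage scale, but neither did the olfactory and vomeronasal receptor genes given below. The share of all genes without overlap was not counted. In MT against SM 94.8% of all tested genes were called in Sed and 94.3% in ExT. The separation is therefore not read as particular to these copies. The copies are near-identical, and how reads that match several copies were counted is not given in the sources used here, so counts of a single copy are uncertain.

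Single 5.8S copies were almost unseen in SM. ENSRNOG00000066190 had 158 counts summed over the 15 MT_Sed libraries and 1 over the 15 SM_Sed libraries, and 135 and 2 in ExT. ENSRNOG00000067463 had 154 and 1 in Sed, and 173 and 0 in ExT. ENSRNOG00000068043 had 119 and 0 in Sed, and ENSRNOG00000067403 had 116 and 0 in ExT. They entered the gene-level fit through MT alone, so no p is given, and no fold is given because SM was at 0 to 2 counts. The olfactory and vomeronasal receptor genes, taken by symbol as above, took 1.37 to 1.98% of nuclear-encoded counts in MT and 0.000766 to 0.00158% in SM. The part of such a background in the 5S and 5.8S counts was not tested.

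Within MT the tRNA and nuclear rRNA shares moved with how much of a library was mitochondrial. Over the 30 MT libraries, the log2 tRNA share of mitochondrial-genome counts fell as the mitochondrial-genome share of all counts rose (Pearson r = -0.919, Spearman rho = -0.934, permutation p = 1e-05 for each, adjusted p = 3e-05 over 6 relations). Leaving out the 2 libraries farthest from the median gave r = -0.902, and r was -0.971 within rats 2 to 16 (n = 14) and -0.903 within rats 17 to 32 (n = 16). The nuclear rRNA share of nuclear-encoded counts rose instead (r = 0.941, rho = 0.915, permutation p = 1e-05 for each, adjusted p = 3e-05), with 0.924 without those 2 libraries and 0.936 and 0.951 within the ranges. The mitochondrial-genome count is the denominator of the tRNA share and the numerator of the share on the x axis, so these measures are not independent. In SM, where the mitochondrial-genome share spans only 22.1 to 35.9%, the same relations did not pass (tRNA r = -0.354, rho = -0.345, adjusted permutation p = 0.0835 and 0.0948; nuclear rRNA r = -0.027, rho = -0.000222, adjusted permutation p = 0.888 and 1). Within rats 17 to 32 the SM tRNA relation was r = -0.587 (permutation p = 0.014, not adjusted; rho = -0.435, p = 0.0939) and -0.243 without the 2 farthest libraries, and within rats 2 to 16 it was r = -0.107 (permutation p = 0.717). For the log2 ratio of AY172581.24 to AY172581.9 the MT relation was r = 0.474, rho = 0.530 (adjusted permutation p = 0.0168 and 0.00604). It held within rats 17 to 32 (r = 0.841) but not within rats 2 to 16 (r = 0.258, permutation p = 0.370), and in SM it was r = -0.161, rho = -0.177 (adjusted permutation p = 0.474 and 0.419).

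**Figure D5:**
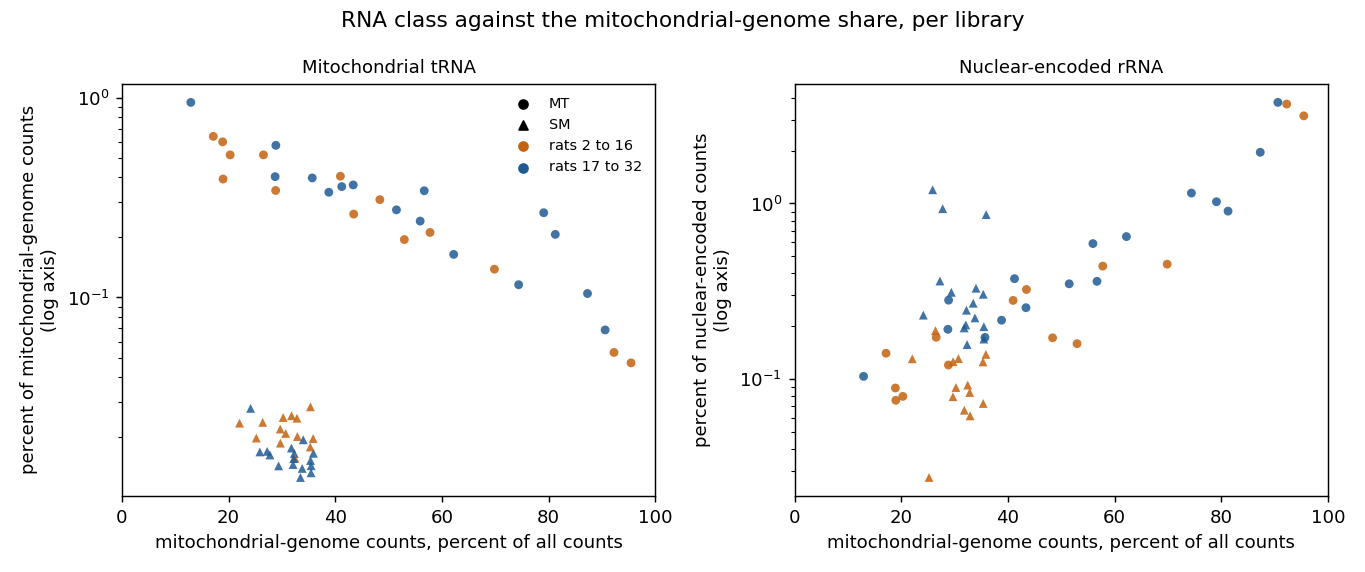
Mitochondrial tRNA as percent of mitochondrial-genome counts (left, log axis) and nuclear-encoded rRNA as percent of nuclear-encoded counts (right, log axis) against mitochondrial-genome counts as percent of all counts; each point is a library, circles MT and triangles SM, coloured by rat number range. Over the MT libraries tRNA falls (r = -0.919) and nuclear rRNA rises (r = 0.941) along the x axis, while SM triangles stay between 22.1 and 35.9%.

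SM also differed by rat number. The ranges were chosen after the data were seen, so the p values for them describe the split and do not test a range set in advance. Nuclear rRNA averaged 0.387% ± 0.315 of nuclear-encoded counts in SM of rats 17 to 32 (n = 16) and 0.101% ± 0.041 in rats 2 to 16 (n = 14; permutation test, p = 1e-05, adjusted p = 0.00012). The tRNA share of mitochondrial-genome counts averaged 0.0163% ± 0.00352 in the later and 0.0218% ± 0.00350 in the earlier rats (adjusted p = 0.00075), and mitochondrial rRNA 25.1% ± 3.18 and 22.3% ± 2.57 of all counts (adjusted p = 0.0398). In MT the corresponding tRNA, nuclear rRNA and mitochondrial rRNA differences did not pass (adjusted p = 0.977, 0.966 and 0.354). Each range held 7 or 8 rats of each arm in SM and MT, so arms are balanced over the ranges, and in LV the earlier range held 1 rat of each arm.

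Training left no detected mark on any member. edgeR called 0 of 14 members tested in SM, 0 of 17 in MT and 0 of 5 in LV, with 0, 2 and 0 at an unadjusted p under 0.05, and DESeq2 also called 0 in each. The background was low as well, with 0.206% of all genes called in SM (0.184% higher and 0.0221% lower), 0.00% in MT and 0.00% in LV. The 2 members under 0.05 unadjusted, named after their values were seen, were AY172581.8 at 0.57 ± 0.28 and ENSRNOG00000070263 at -1.05 ± 0.39 in MT (edgeR adjusted p = 1.00 for each). Log2 differences of members lay between -0.11 and 0.81 in SM, between -1.05 and 0.77 in MT and between -0.39 and 0.35 in LV. The interaction of training with MT against SM called 0 of 58 members (2 at an unadjusted p under 0.05, 0.0181% of all genes called).

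Class shares gave the same picture. Mitochondrial rRNA differed between ExT and Sed by 1.28 percentage points in SM (permutation test, adjusted p = 0.412), by -0.577 in MT (adjusted p = 0.983) and by -2.35 in LV (exact permutation p = 0.0950, adjusted p = 0.171). By rat range the SM and MT differences were 2.86 and -10.9 in rats 2 to 16 (exact permutation p = 0.0338 and 0.354, adjusted p = 0.0608 and 0.496), and -0.0984 and 8.42 in rats 17 to 32 (exact permutation, adjusted p = 0.983 and 0.517). The tRNA share differed by -0.00131 in SM (adjusted p = 0.541) and 0.00340 in MT (adjusted p = 0.983), and nuclear rRNA by 0.0774 in SM, 0.209 in MT and 0.00113 in LV (adjusted p = 0.545, 0.713 and 0.825, exact in LV). For the rRNA ratio the log2 differences were 0.00 in SM, -0.06 in MT and -0.07 in LV (adjusted p = 0.983, 0.523 and 0.533, exact in LV). A single share passed under another denominator: in LV mitochondrial rRNA took 88.0% ± 0.682 of mitochondrial-genome counts in Sed and 86.4% ± 0.982 in ExT, lower by 1.58 percentage points (exact permutation p = 0.00583, adjusted p = 0.0121). The lowest, median and highest LV_Sed libraries were at 87.1%, 87.9% and 88.9% and those of LV_ExT at 84.99%, 86.2% and 87.6%, so the arms overlapped. Neither the MT minus SM nor the LV minus SM difference of any class differed between arms (8 tests, adjusted p = 0.772 to 0.950, exact for LV).

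Genes that make and use these RNAs were counted from lists of known function. CPM of these list genes, here and in LV against SM below, use the TMM-scaled library sizes of each fit. They are therefore not on the scale of the CPM given for members. Of 17 measured genes for cutting and handling mitochondrial precursors, 0 were higher and 15 lower in MT than in SM in each arm by edgeR (median log2 fold change -1.25 in Sed, against 1.81 for all genes). Hsd17b10, a subunit of the mitochondrial ribonuclease P that cuts tRNA 5′ ends, had 2.66 ± 1.00 CPM in MT_Sed and 87.5 ± 13.5 in SM_Sed. Lrpprc, which stabilises mitochondrial mRNAs, had 23.3 ± 5.08 and 233 ± 35.5, and Fastk 9.68 ± 3.23 and 101 ± 11.6. For mitochondrial rRNA and tRNA modification 6 were higher and 13 lower of 25 in Sed (6 and 12 in ExT). Qtrt1 and Qtrt2, the subunits of the enzyme that inserts queuosine into tRNA, were higher by 2.21 ± 0.14 and 2.24 ± 0.10 in Sed, near the all-gene median of 1.81. Of 18 tested mitochondrial aminoacyl-tRNA synthetases and amidotransferase subunits, 5 were higher and 12 lower in Sed (4 and 12 in ExT), among them Hars2, the histidine enzyme, which fell by 1.77 ± 0.08. For RNA polymerase I and III and nucleolar factors 7 of 29 were higher and 18 lower in each arm, with Ncl, the nucleolar protein nucleolin, falling by 3.36 ± 0.09 in Sed. These counts stand beside a background of 61.7% higher and 33.1% lower over all genes in Sed.

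In LV against SM the same lists stand beside a background of 40.0% higher and 38.6% lower over all genes in Sed (39.7% and 39.5% in ExT). For precursor processing 12 were higher and 2 lower of 17 in Sed (13 and 2 in ExT), with Slirp, an RNA-binding partner of Lrpprc, higher by 1.08 ± 0.11, Trnt1, which adds the CCA end to tRNAs, higher by 1.00 ± 0.08 and Rexo2, an oligoribonuclease, lower, falling by 1.24 ± 0.08. For modification 9 were higher and 5 lower of 25 (8 and 5 in ExT), led by Nsun4, a methyltransferase of the small mitochondrial rRNA, at 2.27 ± 0.21. Synthetases gave 8 higher and 7 lower of 18 (8 and 8 in ExT), and polymerase and nucleolar genes 11 higher and 13 lower of 29 (12 and 11 in ExT), with Fbl, the rRNA methyltransferase fibrillarin, falling by 3.26 ± 0.15. Of the 13 mitochondrial mRNAs 9 were lower in LV in each arm (1 higher in Sed, 2 in ExT; median -2.65 and -2.37). Mt-nd6, a complex I subunit, averaged 35.8 ± 10.8 TMM-scaled CPM in LV_Sed and 1952 ± 284 in SM_Sed. Mt-co1, the main complex IV subunit, instead averaged 38130 ± 3452 and 31466 ± 4631 and was called higher (0.28 ± 0.12, edgeR adjusted p = 0.0414). Training called 0 genes of any of these lists in SM, MT or LV.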

How the data were processed

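RNA was sequenced from 74 libraries, grouped by the labels into SM, MT and LV, each Sed or ExT. Per the submitters' processing notes, FastQC 0.74, cutadapt 4.6, STAR 2.7.11a and HTSeq were used with build mRatBN7.2. The deposited values are whole-number read counts per gene, with a biotype column, and not normalized. The annotation version, strand setting and handling of reads that match several genes are not given in the sources used here, so reads of overlapping genes on opposite strands cannot be told apart. No sequences, gene lengths or tRNA identities were used, so levels of different genes are not per length.

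From the counts, class shares were computed per library and compared with two-sided permutation tests of the difference in means (100000 resamples, or exact enumeration with fewer than 10 libraries in a group), adjusted by Benjamini-Hochberg over 27 tests. The tRNA training test in LV has no value because all libraries are at 0. Genes were tested over the whole table with edgeR 4.0.16 (R 4.3.3, quasi-likelihood test, TMM, filterByExpr, Benjamini-Hochberg, called at adjusted p under 0.05), each comparison with its own libraries. DESeq2 1.42.0 was an alternative. The planned ratio of large to small mitochondrial rRNA was computed as AY172581.24 to AY172581.9, since the tables do not name the subunits. Scripts were tested on simulated data.

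The same rat number in the titles marks the same animal, so SM, MT and LV libraries pair by rat. Deviations of same-rat libraries from their group means had a median correlation of 0.020 for MT and SM (12639 genes) and 0.038 for LV and SM (13055 genes). Blocked values are printed where they change the call of a class share or a named member. The closest replicate pair still differed by more than sampling noise (chi-square per degree of freedom 1.20), and no libraries were merged. Precision follows depth: 3 counts equal 0.0761 to 0.154 counts per 1000000 counts (CPM) in SM, 0.300 to 5.66 in MT and 0.0396 to 0.0549 in LV.

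Named members were both mitochondrial rRNA genes, the 4 tRNA genes with the largest mean share of the class in SM and MT, the lowest, nuclear rRNA genes with at least 10% of the class in any tissue, and up to 5 tRNA and 3 rRNA genes called in each direction by size of change. Members, lists, rat number ranges and alternatives were chosen with earlier results of these data known. Alternatives covered scaling, filter, test, block, depth, rat range, denominator, and libraries that stand apart. No marker of the nuclear RNA list was found in the tables (0 of 4).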

Additional observations from a re-analysis of the deposited data

Results flagged for a closer look

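In groups of 7 libraries, 1 library stood farther from the rest than Dixon's test at 95% allows in 5 cases, all in LV, among 12 group and measure combinations tested. The test would flag about 5% of such groups by chance. Rat 32 of LV_Sed had the highest log2 ratio of AY172581.24 to AY172581.9, at 2.75 against 2.41 to 2.53 in the other 6 libraries. ENSRNOG00000068307 reached 9.52 CPM in LV_Sed rat 31 against 0.211 to 1.26 in the others, and 5.71 in LV_ExT rat 18 against 0.359 to 1.10. ENSRNOG00000065988, the leading nuclear rRNA gene of LV, reached 177 in LV_ExT rat 26 against 71.2 to 110 in the others. ENSRNOG00000068405 reached 1.41 in LV_Sed rat 19 against 0.674 to 0.898.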

How the results depend on the processing

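Of 138 class share values under alternatives other than leaving out single libraries, 106 kept direction and side of the threshold, 10 lost and 4 gained significance and 18 changed sign. Differences are in percentage points unless log2 is named, and causes were not tested. MT against SM for mitochondrial rRNA in Sed missed the threshold in rats 17 to 32 (14.8) and as a share of mitochondrial-genome counts (0.857). In ExT it missed with the replicate block (14.9), in rats 2 to 16 (5.29), as a share of mitochondrial-genome counts (2.24), without the 4 MT libraries of rats 2, 15, 27 and 28 (6.20) and without the 3 SM libraries of rats 26, 28 and 29 (14.3); both leave-outs were chosen after seeing the data. The replicate block changed no other call on a class share. The values of LV against SM for tRNA on a difference of medians (-0.0166 in Sed, -0.0143 in ExT) are among the 10 counted as losing significance. LV was at 0 in every library and SM in none, so no test is read from them. MT against SM for nuclear rRNA in Sed passed in rats 2 to 16 (0.644) and without the 3 SM libraries (0.450), and in ExT changed sign as a share of all counts (-0.0443). The log2 rRNA ratio in MT against SM missed in rats 2 to 16 in Sed (0.0155), and in ExT was -0.0927 in rats 2 to 16 and passed in rats 17 to 32 (0.25). The LV training difference of mitochondrial rRNA passed as a share of mitochondrial-genome counts (-1.58).

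Training differences that changed sign, none of them passing, were mitochondrial rRNA in SM (-0.0984 in rats 17 to 32, -1.28 of mitochondrial-genome counts) and MT (8.42 in rats 17 to 32, 0.103 of mitochondrial-genome counts); tRNA in SM (0.000163 of all counts) and MT (-0.107 in rats 17 to 32, -0.000759 of all counts); nuclear rRNA in SM (-0.000534 in rats 2 to 16, -0.0198 in medians), MT (-0.155 in rats 2 to 16, -0.132 in medians, -0.00812 of all counts, -0.105 without the 4 MT libraries) and LV (-0.00159 in medians); and the log2 ratio in SM (0.0085 in rats 17 to 32, 0.0048 in medians).

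Leaving out each replicate in turn gave -3.23 to 1.92 for mitochondrial rRNA under training in MT, 12.2 to 16.9 for MT against SM in ExT, -0.0189 to 0.0480 for tRNA under training in MT, and -0.0120 to 0.0134 for the log2 ratio under training in SM. Nuclear rRNA gave -0.00109 to 0.00209 under training in LV, -0.00113 to 0.427 in MT, 0.0128 to 0.124 in SM (lowest without SM_ExT rat 26) and 0.184 to 0.450 for MT against SM in Sed. The tRNA training difference in SM spanned -0.00203 to -0.00072 and the log2 ratio in LV -0.10 to -0.02.

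In MT against SM in Sed, members called moved from 16 of 23 tested to 89 of 110 without the filter on low counts. Without the 4 MT libraries they were 25 of 31. In ExT they moved from 14 of 19 to 107 of 116 and to 29 of 31. Over all genes the unfiltered tests called 28327 of 30028 in Sed and 28493 of 30030 in ExT. Those without the 4 MT libraries called 23703 of 24949 and 22947 of 24220. Without the filter, LV against SM moved from 15 of 15 to 31 of 39 in Sed and to 27 of 41 in ExT. Over all genes those tests called 13949 of 22451 and 13986 of 22301. The main fits called 94.8% and 94.3% of all genes in MT against SM, and 78.7% and 79.3% in LV against SM. The main counts include members that passed the filter through 1 group alone. These numbered 11 in Sed and 5 in ExT in MT against SM, and 12 and 11 in LV against SM. The counts are therefore not read as results about the members. Of 667 gene values, 612 held, 12 lost and 21 gained a call and 22 changed sign, all in MT against SM. In Sed, AY172581.9 was -0.0624 by mitochondrial-genome total, -0.0896 unfiltered, -0.52 in rats 17 to 32, -0.91 with the replicate block and -0.66 without the 4 MT libraries; AY172581.24 was -0.19 in rats 17 to 32, -0.76 with the block and -0.43 without the 4; AY172581.15 was -0.33 in rats 17 to 32; and ENSRNOG00000068307 was 0.0226 by library totals, 0.64 in rats 2 to 16 and 0.94 thinned. In ExT, AY172581.9 was -0.0083 by mitochondrial-genome total, -1.08 with the block and -1.25 without the 4; AY172581.24 was -0.95 with the block and -1.10 without the 4; ENSRNOG00000068307 was 0.49 in rats 2 to 16, 1.23 thinned and 0.18 without the 3 SM libraries; and ENSRNOG00000070263 was 0.70 by library totals and 0.60 by mitochondrial-genome total. MT depth limits single copies of 5S and 5.8S rRNA and the scarce tRNA genes most.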
